A study of Mus musculus with 6 samples.

Results

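The genes described are 39 cell cycle genes: the loaders and helicase subunits of DNA replication, enzymes of S phase, the cyclins with their kinases, the mitotic regulators and the inhibitors of cyclin-dependent kinases (CDK). They were chosen by name, and all 39 were found among the 23420 genes of the deposited tables. RNA-seq read counts came from the luminal layer of the uterus and from blastocysts, both collected at 8 pm on day 4 of pregnancy, right before embryos attach. Control females carried Lif-floxed/floxed alleles without Cre and received PBS. *Lif* eKO females were Lif-floxed/floxed Ltf-Cre/+ and also received PBS. Here Cre is driven by the *Ltf* promoter in the uterine epithelium, so stromal *Lif* remains. The rLif-treated *Lif* eKO females had the same genotype as *Lif* eKO and received recombinant Lif by intraperitoneal injection, 20 µg per head, at 10 am and again at 6 pm, 2 h before dissection. Blastocysts are labelled Lif-floxed/+ in all 3 groups, so that their groups differ in the mother and her treatment. The luminal layer was isolated by laser microdissection. Each group in each tissue was 1 library of pooled material, there were no replicates, and no p-value is given.

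A cell that divides passes through G1, S, G2 and M phases. D-type cyclins with *Cdk4* or *Cdk6* act in G1, E-type cyclins with *Cdk2* at the entry into S phase, and the cyclins A2, B1 and B2 with *Cdk2* or *Cdk1* from S phase to mitosis. Origins of replication are licensed when Cdc6 and Cdt1 load the Mcm2-7 helicase. In the mouse uterus, epithelial cells proliferate under estrogen early in pregnancy and stop before the embryo attaches, when stromal cells proliferate under progesterone. Blastocysts, in contrast, cycle rapidly until implantation unless they enter diapause.

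Total counts were 23850565 to 28460465 in the luminal libraries and 18996158 to 19638852 in the blastocyst libraries. *Lif* had 0 counts in the luminal control library, 28 in the library labelled eKO and 0 in the library labelled eKO with rLif. These counts do not bear out the luminal labels. They cannot speak against them either, because the study places *Lif* in the glands before attachment and stromal *Lif* remains in eKO. The luminal libraries are therefore named by their labels, and every luminal direction given here rests on those labels. In blastocysts *Lif* had 1447, 1736 and 1250 counts (control, eKO, eKO with rLif). The epithelial markers *Krt8* and *Epcam* were abundant in all luminal libraries, at 606.5 to 1727 CPM and 570.9 to 1355 CPM. The embryonic genes *Nanog* and *Pou5f1* had 0 counts there, whereas *Cdx2* had 15 counts in the library labelled eKO and 0 in the others. Not all of the 8 listed blastocyst markers were absent. They summed to 6.852, 6.79 and 2.535 CPM (control, eKO, eKO with rLif), with *Elf5* at 75, 76 and 5 counts. RNA from stroma was present in the luminal libraries, with a summed level over 10 stromal markers of 806.5, 1214 and 839.8 CPM (control, eKO, eKO with rLif). In a bulk library, fewer cells of a type and less RNA per cell cannot be told apart.

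Values are CPM (counts scaled to a common library size by TMM within a tissue), and RPKM (CPM per kb of exon, scaled by TMM over all 6 libraries) where genes or tissues are compared with each other. A gene was called higher or lower when the exact 95% interval of its ratio between 2 libraries lay wholly beyond a log2 ratio of 1, that is a fold of 2. These intervals cover counting error only and compare libraries, not conditions. With a minimum of 10 counts over the 3 libraries of a tissue, 38 of the 39 genes were tested in each. The exception was *Cdkn2a*, which had 5, 0 and 0 counts in the luminal libraries and 2, 0 and 0 in blastocysts.

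In the luminal layer, the library labelled eKO held less of the transcripts of G2 and mitosis than control did. Of 38 cell cycle genes, 5 were called lower and 1 higher, while 9.15% of all 15694 genes tested were called lower and 8.08% higher. The share of cell cycle genes called was thus near that of all genes, and the shift lay in their signs. In total 31 of 38 had a log2 ratio below 0, against 49.5% of all genes, and the median log2 ratio was -0.64, against 0.01 for all genes. All 13 genes of G2 and mitosis lay below control, from -1.98 to -0.61, and 4 of them were called lower. The plot of luminal levels shows the 3 libraries side by side.

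**Figure D1:**
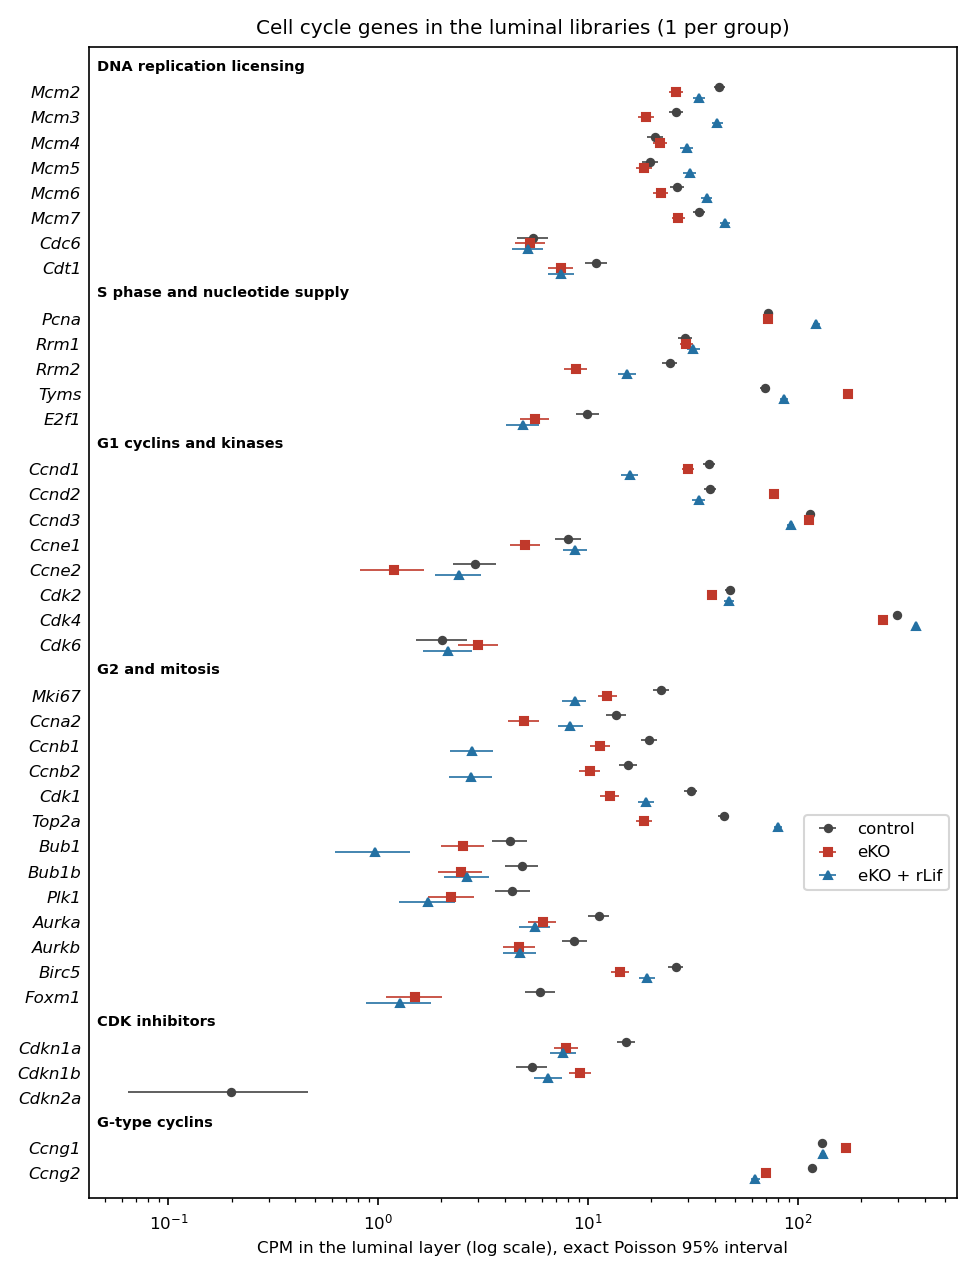
CPM of each cell cycle gene in the 3 luminal libraries (log axis), 1 point per library with its exact Poisson 95% interval, grouped by phase. Libraries with 0 counts are not drawn (*Cdkn2a*). The control points of the G2 and mitosis genes lie to the right of the eKO points in all 13 genes, and *Top2a* is the gene of that group with its highest point in the library labelled eKO with rLif, at 80.31 CPM.

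The gene called lower by most was *Foxm1*, a transcription factor of mitotic genes (chromosome 6, 128362994 to 128375886, plus strand, GRCm38). It was at 5.902 CPM in control, 1.497 in the library labelled eKO and 1.267 in the library labelled eKO with rLif, so that control stood apart from both others. The log2 ratio of eKO to control was -1.98 (95% interval -2.50 to -1.48), with 43 counts against 149. Its exons share 2.06% of their length with 4933413G19Rik, and reads there are uncertain. *Ccna2*, the cyclin of S phase and G2, had 13.59, 4.944 and 8.219 CPM and a log2 ratio of -1.46 (-1.75 to -1.17). Of its exon length 13.4% is shared with *Exosc9*. *Cdk1*, the kinase that drives mitosis, had 30.82, 12.67 and 18.86 CPM and a log2 ratio of -1.28 (-1.47 to -1.10). For both genes the library labelled eKO was the lowest, and the rLif library lay between it and control.

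*Top2a*, the topoisomerase that untangles chromosomes before they separate, had 44.16, 18.52 and 80.31 CPM, with a log2 ratio of eKO to control of -1.25 (-1.41 to -1.10). *Rrm2*, the cell cycle-regulated subunit of ribonucleotide reductase, was the fifth gene called lower, at 24.4, 8.74 and 15.29 CPM with a log2 ratio of -1.48 (-1.70 to -1.27). *Tyms*, thymidylate synthase, was the gene called higher. It had 69.16 CPM in control, 172.7 in the library labelled eKO and 85.5 in the library labelled eKO with rLif, with a log2 ratio of 1.32 (1.24 to 1.40). *Rrm2* and *Tyms* both supply nucleotides for DNA synthesis, and they moved in opposite directions in this comparison.

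The library labelled eKO with rLif held less of the B-type cyclins and of 4 other cell cycle genes than control. It had 6 genes called lower and 0 higher, while 5.04% of all genes were called lower and 4.12% higher. The log2 ratio was below 0 in 24 of 38 genes, against 48.9% of all genes, with a median of -0.31 against 0.01. *Ccnb1* and *Ccnb2*, the B-type cyclins that activate Cdk1, were the lowest relative to control. *Ccnb1* (chromosome 13, 100778739 to 100786486, minus strand) had 19.57 CPM in control, 11.42 in the library labelled eKO and 2.804 in the library labelled eKO with rLif. Its log2 ratio of rLif-treated eKO to control was -2.80 (-3.18 to -2.45), with 73 counts against 494. *Ccnb2* (chromosome 9, 70407689 to 70421554, minus strand) had 15.53, 10.2 and 2.765 CPM and a log2 ratio of -2.49 (-2.87 to -2.12). The rLif library stood far below both others for both genes.

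**Figure D2:**
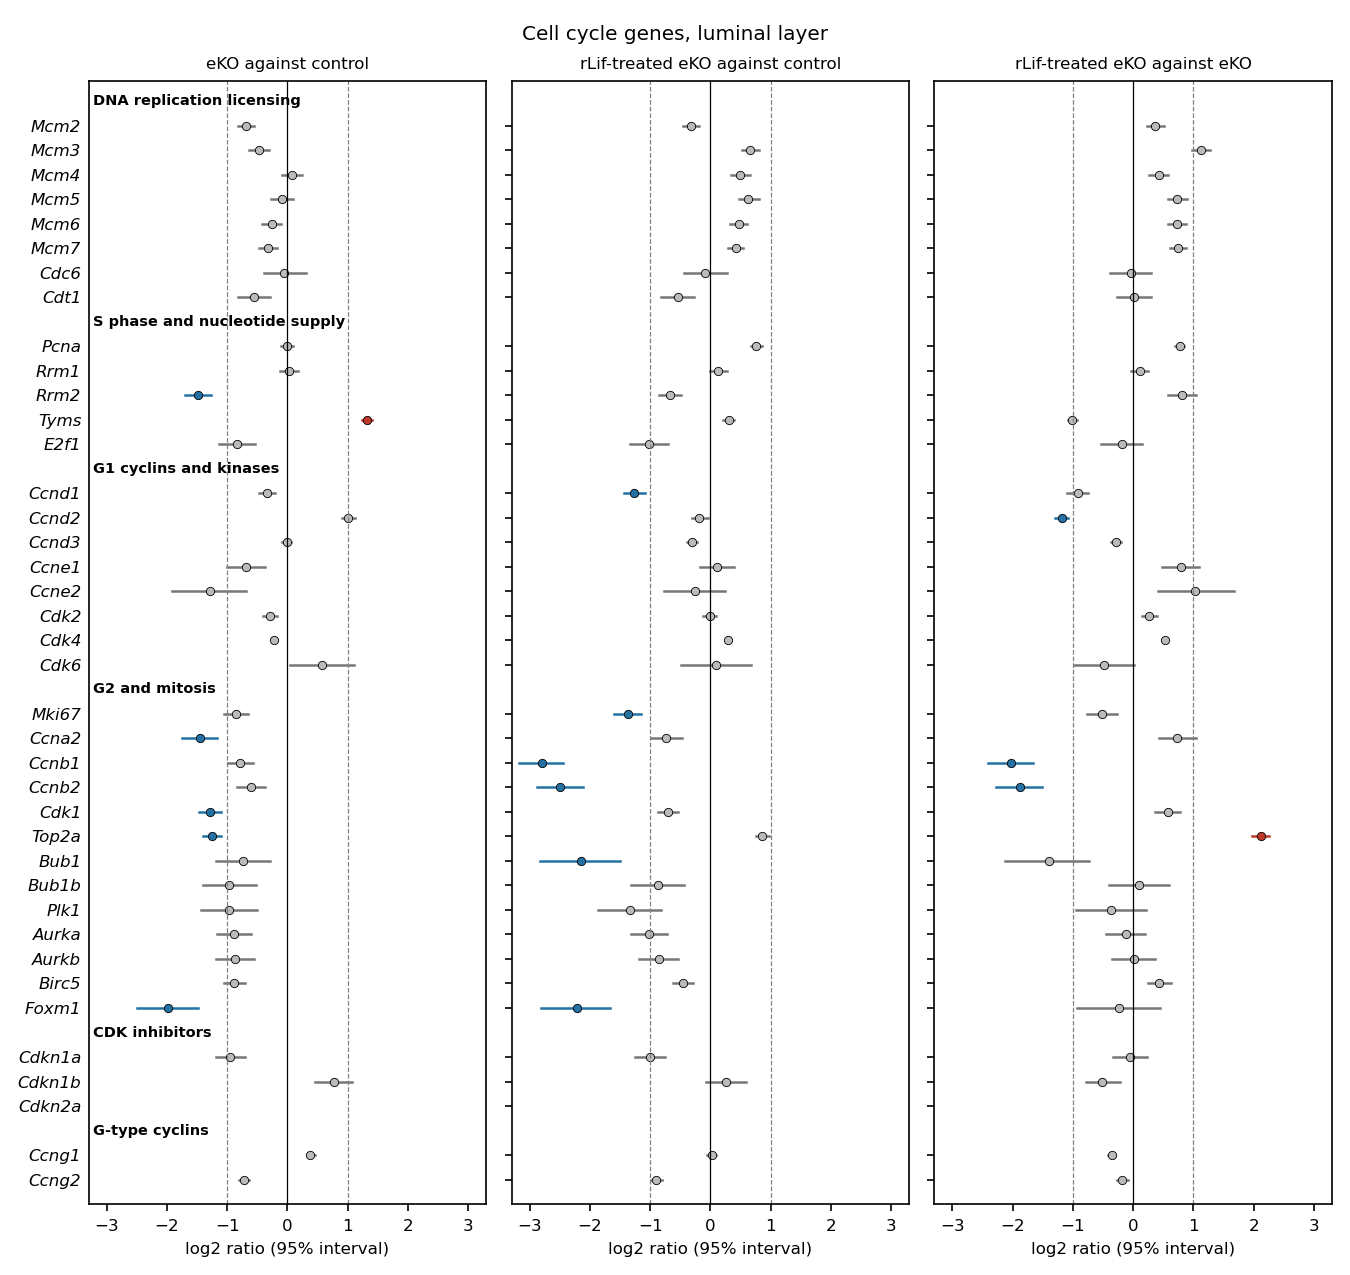
log2 ratio of each cell cycle gene between 2 luminal libraries, with its exact 95% interval, in 3 panels, 1 per comparison. Red points were called higher, blue points lower and grey points not called, and dashed lines mark log2 ratios of -1 and 1. In the right panel *Top2a* stands at 2.12 while *Ccnb1* and *Ccnb2* stand at -2.03 and -1.88.

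*Bub1*, a kinase of the spindle checkpoint, had 107, 73 and 25 counts. Its ratio of rLif-treated eKO to control was -2.14 on the log2 scale (-2.83 to -1.50). *Foxm1* was again called lower, at -2.22 (-2.81 to -1.67). *Mki67*, which encodes the proliferation marker Ki67, had 22.26, 12.33 and 8.604 CPM with a log2 ratio of -1.37 (-1.60 to -1.15). The sixth gene was the G1 cyclin *Ccnd1*, described with its relatives further on. Within the group of G2 and mitosis, 12 of 13 genes had a log2 ratio below 0 and *Top2a* was the exception, at 0.86 (0.76 to 0.97). Its value was not called.

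Against the library labelled eKO, the library labelled eKO with rLif had 1 cell cycle gene called higher and 3 lower, while 7.88% of all genes were called higher and 7.77% lower. *Top2a* (chromosome 11, 98992947 to 99024189, minus strand) was called higher, with 2091 counts against 532 and a log2 ratio of 2.12 (1.98 to 2.26). *Ccnb1* and *Ccnb2* were called lower, with log2 ratios of -2.03 (-2.41 to -1.66) and -1.88 (-2.28 to -1.51). *Ccnd2* was the third gene called lower. The median over the 38 genes was 0.01 and 20 of them had a log2 ratio above 0, against 49.3% of all genes. Genes of G2 and mitosis were thus split between the directions, with 6 above 0 and 7 below. When libraries were scaled by total counts, 17 of the 38 and 4 of the 13 lay above 0. The 3 luminal comparisons share libraries pairwise and are not independent of each other.

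The split between *Top2a* and the B-type cyclins can be read within single libraries, where no scaling enters. There were 2.26 *Top2a* counts per *Ccnb1* count in luminal control (95% interval 2.03 to 2.51), 1.62 in the library labelled eKO (1.41 to 1.87) and 28.6 in the library labelled eKO with rLif (22.7 to 36.7). In blastocysts the same ratio was 0.311, 0.316 and 0.319. Counts of *Cdk1* per count of *Ccnb1* were 1.57, 1.11 and 6.73 in the luminal libraries, and 0.332, 0.325 and 0.331 in blastocysts. The rLif luminal library had the highest value of both ratios among the 6 libraries.

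The promoters of these mitotic genes are shown because the genes carry the luminal differences and yet differ in direction. Promoters of G2 and mitosis genes are known for the CHR element and for CCAAT boxes, and those of replication genes for E2F sites. The letters searched, on both strands, were TTTGAA for the CHR, CCAAT for the CCAAT box, and TTTGGCGC, TTTCCCGC, TTTGGCGG and TTTCCCGG for E2F. None of these letter strings contains another. RefSeq promoters (GRCm38.p6, 250 bases before to 50 after the start) matched 32 of the 39 genes, in 36 windows. No entry was found for *Aurkb*, *Ccne2*, *Ccna2*, *Mcm4*, *Foxm1*, *Ccnd2* and *Ccnd1*. Below are the 150 bases before the start site of 5 genes, 5′ to 3′ in the direction of transcription, with the motif letters in capitals (on the opposite strand they read TTCAAA and ATTGG).

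Ccnb1 promoter (chr13:100786487-100786636, minus strand): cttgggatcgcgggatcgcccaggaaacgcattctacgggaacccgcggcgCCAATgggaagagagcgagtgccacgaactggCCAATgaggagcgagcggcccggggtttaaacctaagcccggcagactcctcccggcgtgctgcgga
Ccnb2 promoter (chr9:70421555-70421704, minus strand): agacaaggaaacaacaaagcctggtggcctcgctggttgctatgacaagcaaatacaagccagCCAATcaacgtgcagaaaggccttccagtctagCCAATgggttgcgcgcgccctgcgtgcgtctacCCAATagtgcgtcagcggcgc
Top2a promoter (chr11:99024190-99024339, minus strand): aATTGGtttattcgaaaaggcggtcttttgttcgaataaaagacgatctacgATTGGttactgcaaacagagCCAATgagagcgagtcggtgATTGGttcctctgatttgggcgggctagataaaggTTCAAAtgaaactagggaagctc
Cdk1 promoter (chr10:69352913-69353062, minus strand): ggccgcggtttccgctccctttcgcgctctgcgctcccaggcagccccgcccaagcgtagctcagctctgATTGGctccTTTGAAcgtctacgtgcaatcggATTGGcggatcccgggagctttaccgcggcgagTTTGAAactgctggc
Mki67 promoter (chr7:135716380-135716529, minus strand): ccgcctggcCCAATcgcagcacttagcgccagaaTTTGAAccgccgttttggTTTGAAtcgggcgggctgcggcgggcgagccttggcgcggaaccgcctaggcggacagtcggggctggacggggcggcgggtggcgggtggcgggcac

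CCAAT letters stood in all 5 of these windows. Over the full 300 bases CHR letters stood in those of *Ccnb2*, *Top2a*, *Cdk1* and *Mki67*, and not in that of *Ccnb1*. Letters other than TTTGAA were not searched for the CHR, so that a variant of it in *Ccnb1* would have been missed. In the full window *Ccnb2* had CHR letters starting 167 bases before and at base 5 after the start, both outside the bases shown. Among the 10 windows of G2 and mitosis genes, 7 held CHR letters and 9 held CCAAT letters, compared with 17.9% and 37.4% of all 32851 RefSeq promoters. Among the 8 windows of licensing genes, 6 held E2F letters, compared with 3.32% of all promoters, and 1 held CHR letters. The windows of *Top2a*, which was called higher in the library labelled eKO with rLif, and of *Ccnb2*, which was called lower there, both held CHR and CCAAT letters, as 6.95% of all promoters did. A match of letters is a description of the sequence only.

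The licensing genes lay lower in the library labelled eKO and higher in the library labelled eKO with rLif, by amounts that were not called. Their median log2 ratio was -0.29 for eKO against control, with 1 of 8 above 0, and 0.58 for rLif-treated eKO against eKO, with 7 of 8 above 0. *Mcm3*, a subunit of the replicative helicase, had 26.1, 18.84 and 41.21 CPM. Its log2 ratio of rLif-treated eKO to eKO was 1.13, and the interval from 0.98 to 1.28 reached below 1. The helicase subunits *Mcm5*, *Mcm6* and *Mcm7* had ratios of 0.73, 0.73 and 0.74 in that comparison, whereas the loaders *Cdc6* and *Cdt1* had -0.04 and 0.01. *Cdc6* was at 5.466, 5.293 and 5.147 CPM, with little difference between the libraries.

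In the S phase group, *Pcna*, the sliding clamp of DNA polymerase, had 72.01, 71.8 and 122.2 CPM. Control and the library labelled eKO were the same within counting error (log2 ratio 0.00, -0.10 to 0.09), and the library labelled eKO with rLif lay above eKO by 0.77 (0.69 to 0.85), which was not called. *Rrm1*, the large subunit of ribonucleotide reductase, stayed between 28.88 and 31.65 CPM, unlike *Rrm2*. *E2f1*, an activator of S phase genes, had 9.902, 5.571 and 4.878 CPM. In the library labelled eKO with rLif its log2 ratio to control was -1.02 (-1.34 to -0.71), which was not called.

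The D-type cyclins, which link external signals to G1 progress, differed from each other. *Ccnd1* had 37.71, 29.84 and 15.75 CPM, and its log2 ratio of rLif-treated eKO to control was -1.26 (-1.43 to -1.09), called lower. *Ccnd2* had 37.91, 76.47 and 33.53 CPM, with the library labelled eKO above the others. Its log2 ratio of eKO to control was 1.01 (0.90 to 1.12), not called, and that of rLif-treated eKO to eKO was -1.19 (-1.30 to -1.08), called lower. *Ccnd3* had 113.4, 112.4 and 91.99 CPM and was not called. In RPKM, *Ccnd3* made up 75.3%, 70.2% and 80.3% of the 3 D-type cyclins in the luminal libraries, and *Ccnd2* 9.85%, 18.7% and 11.5%. The exons of *Ccnd3* overlap those of *Bysl* over 15.8% of their length, so that its counts are uncertain.

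Of the G1 kinases, *Cdk4* was the abundant one, with 229.8, 197.9 and 280.6 RPKM against 0.859 to 1.27 for *Cdk6*. Its CPM were 294.6, 253.6 and 363.0, and no comparison was called. *Cdk2* was at 38.93 to 47.45 CPM in the luminal libraries. *Ccne1*, an E-type cyclin, had 203, 144 and 226 counts. *Ccne2* had 73, 34 and 63, and 53.9% of its exon length is shared with *Ints8*, so that its value may not be its own.

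Among the inhibitors, *Cdkn1a*, which encodes p21 and responds to p53, had 15.17, 7.869 and 7.605 CPM. Both other libraries lay near 1 log2 unit below control, at -0.95 (-1.19 to -0.71) and -1 (-1.25 to -0.75), and neither was called. *Cdkn1b*, which encodes p27, had 5.387, 9.158 and 6.453 CPM, highest in the library labelled eKO, with a log2 ratio to control of 0.77 (0.46 to 1.07) that was not called. The G-type cyclin *Ccng1*, a p53 target, had 129.6, 168.8 and 131.7 CPM. *Ccng2*, which is linked to cell cycle arrest, had 116.4, 70.62 and 62.41 CPM, with log2 ratios to control of -0.72 (-0.80 to -0.64) and -0.90 (-0.99 to -0.81). None of these was called.

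The other genes of the pathway were read in 5 lists of 108 genes, and all 108 were tested in both tissues. Of 32 further mitosis genes, 25 lay below control in the library labelled eKO (median log2 ratio -0.62) and 3 were called lower, a share near the 9.15% of all genes. In the library labelled eKO with rLif, 25 of 32 lay below control (median -0.91) and 5 were called lower, while 5.04% of all genes were. Among them *Ncapg*, a condensin subunit, had 188, 83 and 52 counts, and *Hmmr*, a spindle protein, had 230, 109 and 78. *Cenpa*, the histone of the centromere, had 504, 182 and 221 counts and was called lower than control in both libraries, at -1.66 and -1.23. Of 32 genes of origins and replication forks, 26 lay higher in the library labelled eKO with rLif than in the library labelled eKO (median 0.35). In that comparison 3 of them were called higher and 0 lower, a share near the 7.88% of all genes called higher. These were *Orc1*, a subunit of the origin recognition complex, with 254 counts against 85 (log2 ratio 1.72), *Chaf1b*, a histone chaperone, with 231 against 79 (1.69), and *Gins1*, part of the replicative helicase, with 573 against 251 (1.33).

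In the list of Rb, E2F and DREAM genes, the repressors and activators that act on cell cycle promoters, 0 of 17 were called in any luminal comparison, which at 4.12% to 9.15% of all genes called per direction says little for so few genes, with medians of -0.40, -0.20 and 0.14. Among 13 genes of inhibitors and checkpoint, *Cdkn2b*, which encodes the Cdk4 and Cdk6 inhibitor p15, had 741, 74 and 259 counts. It was called lower in both libraries than in control, at -3.51 (-3.87 to -3.16) and -1.56 (-1.77 to -1.35). *Cks2*, a small CDK-binding subunit, had 371, 1123 and 810 counts and was called higher in eKO against control, at 1.41. Of 14 genes of the p53 pathway, *Gadd45a*, which is induced by DNA damage and stress, had 5116, 723 and 8946 counts. Its log2 ratios were -3.01 (-3.12 to -2.90) for eKO against control and 3.77 (3.66 to 3.88) for rLif-treated eKO against eKO. *Plk3*, a stress-responsive polo-like kinase, had 334, 86 and 262 counts, lowest in the library labelled eKO as for *Gadd45a*. *Sesn1*, a sestrin, ran the other way with 299, 1142 and 203 counts.

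Markers of other cell types also differed between the luminal libraries. Of 10 stromal markers, 8 lay above control in the library labelled eKO and 4 in the library labelled eKO with rLif, with 1 (*Col3a1*) and 0 called higher. *Vim* was at 67.5, 84.82 and 59.92 CPM, *Col1a1* at 19.77, 32.97 and 16.02, and *Pdgfra* at 34.14, 35.41 and 24.27. The 6 smooth muscle markers summed to 70.39, 50.49 and 31.38 CPM, and all 6 lay below control with rLif, 4 of them called, with *Acta2* at 470, 309 and 134 counts. The 6 endothelial markers summed to 47.89, 69.4 and 94.06 CPM, with *Pecam1* at 13.15, 10.62 and 10.56. Of these sums *Tek* made up 4.912, 6.894 and 34.45 CPM, and the median log2 ratio of the list was 0.01 for rLif-treated eKO against eKO. The 6 immune markers in the tables summed to 802.4, 669.7 and 643 CPM, most of it from *Lyz2*, at 744.7, 612.4 and 548.9 CPM. Against control with rLif 4 of the 6 lay higher (median 0.70), with *Ptprc* at 8.912, 14 and 14.98 CPM. The 4 gland markers in the tables summed to 14.22, 9.854 and 30.69 CPM, and *Foxa2*, which defines glands, had 3, 0 and 10 counts. With rLif all 4 lay above control (median log2 ratio 1.32, 1 called) and above eKO (median 2.62, 3 called). The part of these cell types in the luminal differences was not tested.

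In blastocysts the same genes were abundant and nearly level across the 3 groups. Of 38 genes, 36 lay within 0.5 log2 units of control in the eKO group, 35 in the rLif-treated group, and 36 lay within that distance between rLif-treated eKO and eKO. The share of all genes within that distance was not counted, so that this is no trait particular to cell cycle genes. For eKO against control 1 gene was called lower and 0 higher, while 1.86% of all 14873 genes were called lower and 1.29% higher. In the comparison of rLif-treated eKO with control 0 genes were called in either direction, while 3.99% of all genes were called lower and 0.948% higher. For rLif-treated eKO against eKO 1 gene was called lower and 0 higher, while 2.83% of all genes were called lower and 0.914% higher.

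**Figure D3:**
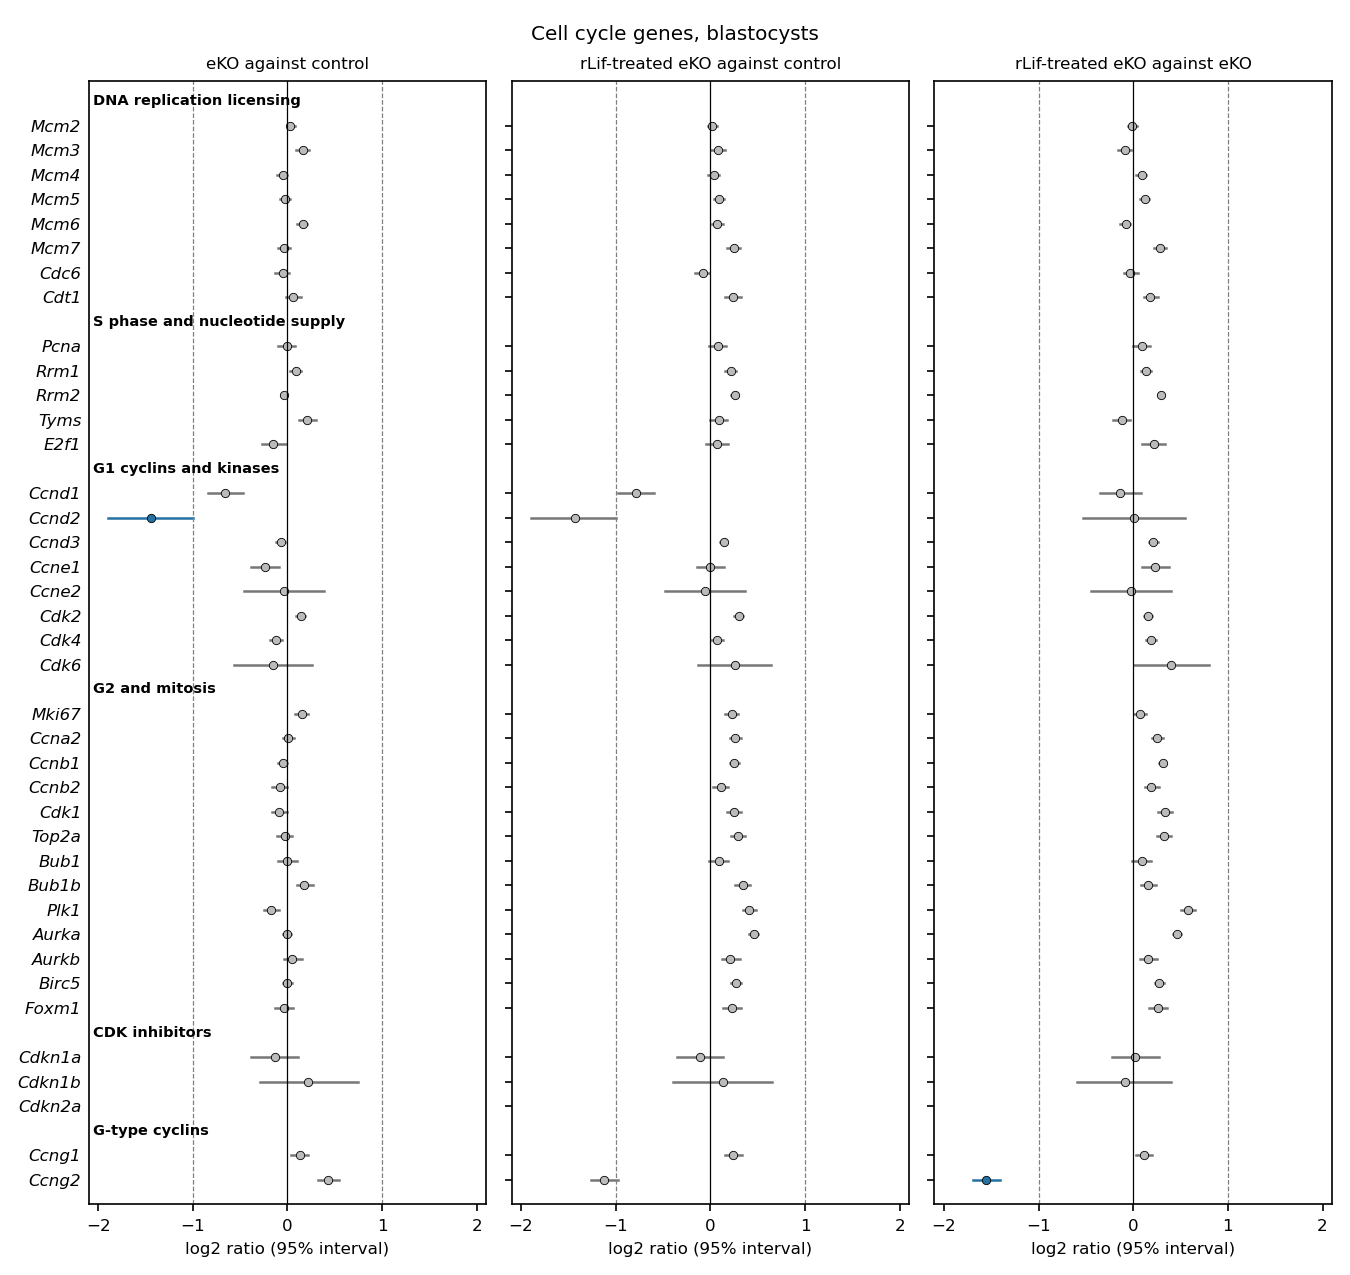
log2 ratio of each cell cycle gene between 2 blastocyst libraries, with its exact 95% interval, in 3 panels, 1 per comparison. Blue points were called lower and grey points not called, and dashed lines mark -1 and 1. *Ccnd2* (left panel, -1.44) and *Ccng2* (right panel, -1.55) lie apart from the other genes, and the 13 G2 and mitosis genes lie to the right of 0 in the middle and right panels.

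*Ccnd2* had 159 counts in control blastocysts and 60 in each of the other groups. The log2 ratio of eKO to control was -1.44, and the edge of its interval nearest 0, -1.005, lay just beyond the limit. The ratio of rLif-treated eKO to control was -1.43, and its edge, -0.997, lay just short of it, so that nearly equal values fell on either side of the limit. *Ccnd1* had 599, 390 and 353 counts, with log2 ratios to control of -0.66 (-0.84 to -0.47) and -0.79 (-0.98 to -0.60), not called. *Ccnd3* had 440.1, 418.2 and 484.5 CPM. In the same libraries 7 of 9 tested stromal markers lay below control in the eKO group, 2 of them called, and 7 of 9 in the rLif-treated group, 4 of them called. *Vim* had 191, 72 and 100 counts and *Col1a1* 38, 27 and 16. The 6 smooth muscle markers summed to 4.144, 4.553 and 3.035 CPM, with *Acta2* at 7, 2 and 0 counts. Of the 4 tested, 2 lay above and 2 below control in the eKO group, and 1 above and 3 below in the rLif-treated group. Of the 4 gland markers in the tables, 3 had at most 3 counts in each blastocyst library. The other was *Foxa2*, with 103, 61 and 26 counts here and 3, 0 and 10 in the luminal libraries. The summed level of the 10 stromal markers was 167.4, 175.1 and 164.6 CPM, most of it from *Pdgfra*, at 123.5, 145.6 and 139.8 CPM. *Pdgfra* had 2354, 2845 and 2718 counts here, more than the 862, 1017 and 632 of the luminal libraries. The sum can therefore not be read as a level of stromal RNA. The part of all these markers in the values of *Ccnd2* was not tested.

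*Ccng2* had 1246 counts in control blastocysts, 1720 in the eKO group and 585 in the rLif-treated group. Its log2 ratio of rLif-treated eKO to eKO was -1.55 (-1.69 to -1.41), called lower. Against control the ratio was -1.12 (-1.26 to -0.98), which was not called, and for eKO against control it was 0.43 (0.32 to 0.54). *Ccng1* had 1867, 2096 and 2252 counts and did not share this pattern. The 6 immune markers summed to 60.22, 123.2 and 21.66 CPM, in the same order as *Ccng2* and most of it from *Lyz2*, at 51.19, 108.9 and 14.87 CPM, with *Ptprc* at 26, 41 and 19 counts, and their part in the result was not tested.

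All 13 G2 and mitosis genes lay higher in blastocysts of the rLif-treated group than in both other groups, each by less than the limit for a call. The log2 ratios were 0.09 to 0.46 against control (median 0.25) and 0.07 to 0.58 against eKO (median 0.26), while 48.6% and 49% of all genes lay above 0 in these comparisons, which share the rLif-treated library. *Plk1*, a polo-like kinase of mitosis, had 155.2, 138 and 205.7 CPM and the largest ratio to eKO, 0.58 (0.51 to 0.65). *Aurka*, a spindle pole kinase, had 402.3, 401 and 552 CPM and the largest ratio to control, 0.46 (0.41 to 0.50). *Mki67* had 175.4, 194.7 and 205 CPM. Between eKO and control the 13 genes lay from -0.17 to 0.18, with 4 above 0. Of 8 blastocyst markers, 6 lay higher and 2 lower in the rLif-treated group than in control, and likewise than in eKO. Their summed level was 3077, 3440 and 3755 CPM, with *Cdx2* at 620.6, 820.5 and 950.5 CPM and *Pou5f1* at 304.8, 315.8 and 413.2. The trophectoderm gene *Elf5* ran the other way, at 104.3, 67.07 and 46.4 CPM, and was called lower than control, at -1.17. The part of these markers in the result was not tested. With 1 library per group, the spread between pools of blastocysts against which these differences could be judged was not measured.

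The licensing genes were level in blastocysts, with log2 ratios to control of -0.05 to 0.16 in the eKO group and -0.08 to 0.25 in the rLif-treated group. *Pcna* had 99.92, 99.4 and 105.5 CPM. The inhibitors were low, with 289, 270 and 273 counts of *Cdkn1a* and 61, 73 and 68 of *Cdkn1b*. Of the 108 other cell cycle genes, *Cdkn1c*, which encodes the inhibitor p57, was the one called in blastocysts. Of all genes, 1.86% were called lower than control in the eKO group and 3.99% in the rLif-treated group. *Cdkn1c* had 200, 77 and 54 counts and log2 ratios to control of -1.41 (-1.81 to -1.03) and -1.92 (-2.38 to -1.48). In the luminal libraries *Cdkn1c* was at 154.6 to 319 CPM. Of 9 tested stromal markers, 7 lay below control in the eKO group and 7 in the rLif-treated group of blastocysts. *Pdgfra*, which had more counts in blastocysts than in the luminal libraries, lay above control in both. The part of these markers in the values of *Cdkn1c* was not tested. Of the 32 further mitosis genes, 30 lay above control in the rLif-treated group (median 0.29) and 27 above eKO (median 0.22), and 0 were called.

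Blastocysts and the luminal layer differed far more than the groups did. A gene was counted as higher in blastocysts when the lowest of its 3 blastocyst libraries exceeded the highest of its 3 luminal libraries more than 2-fold, after TMM scaling over the 6 libraries. This held for 26 of 38 cell cycle genes, compared with 22.2% of all 17081 genes, and 1 was lower by the same rule, compared with 24% of all genes. The median log2 ratio of blastocysts to the luminal layer was 3.01, against -0.14 for all genes. The libraries of a tissue are 3 different groups and not replicates, and tissue cannot be told apart from the way each tissue was collected.

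**Figure D4:**
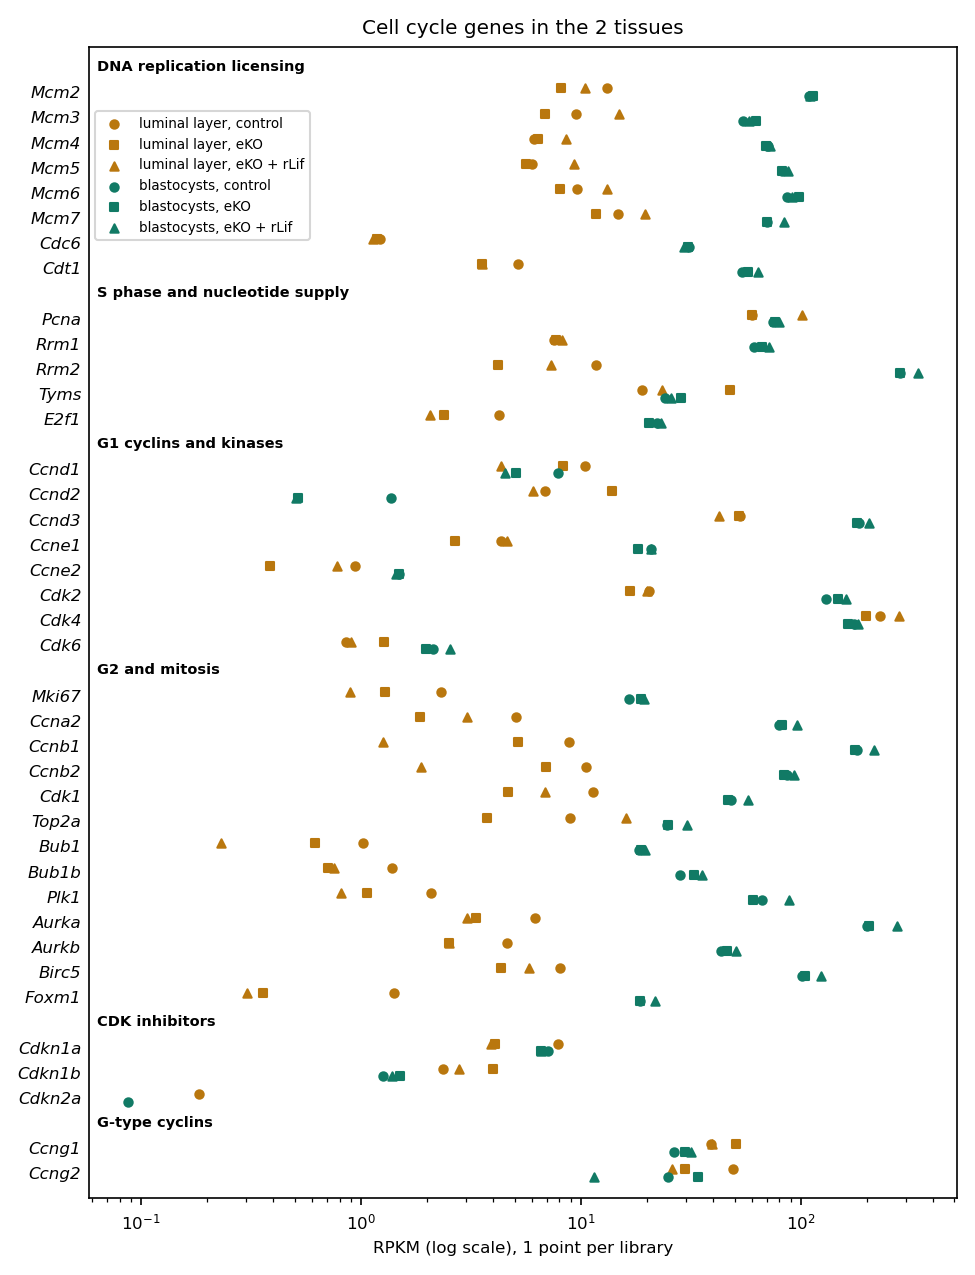
RPKM of each cell cycle gene (log axis), 1 point per library, with the luminal layer in brown and blastocysts in green and the groups by marker shape. Values of 0 are not drawn. The G2 and mitosis genes of blastocysts lie to the right of the luminal points without overlap, whereas *Ccnd2* lies to the left.

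By phase, all 8 licensing genes were higher in blastocysts (median log2 ratio 3.37), with *Cdc6* at 1.14 to 1.22 RPKM in the luminal layer and 29.4 to 31.1 in blastocysts. Of 13 genes of G2 and mitosis 12 were higher (median 4.70). *Aurka* showed the widest gap, from 3.04 to 6.18 RPKM in the luminal layer to 200 to 275 in blastocysts, or 32.4-fold between the nearest libraries. *Plk1* was at 0.816 to 2.08 against 60.7 to 88.7 RPKM. *Top2a* was the one of this group that missed the rule, with 3.73 to 16 RPKM in the luminal layer, 24.8 to 30.4 in blastocysts and 1.55-fold between the nearest libraries. *Rrm2* was at 4.21 to 11.8 RPKM against 283 to 340.

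Some genes of DNA synthesis and G1 did not follow the tissue. *Pcna* overlapped between tissues, at 59.9 to 101 RPKM in the luminal layer and 75.1 to 79.5 in blastocysts. *Tyms* overlapped as well, at 19.1 to 47.6 against 24.2 to 28.6 RPKM. *Cdk4* was slightly higher in the luminal layer, at 198 to 281 RPKM against 164 to 183. *Cdk2*, in contrast, did follow the tissue and was counted as higher in blastocysts, at 130 to 161 RPKM against 16.8 to 20.5. *Ccnd2* was the gene counted as lower in blastocysts, at 0.508 to 1.37 RPKM against 6.04 to 13.9. *Cdkn1b* had 1.26 to 1.51 RPKM in blastocysts and 2.35 to 4 in the luminal layer, and *Cdkn1a* overlapped, at 6.58 to 7.09 against 3.9 to 7.86. *Ccng1* and *Ccng2* missed the rule in both directions.

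Both tissues drew most of their D-type cyclin transcripts from *Ccnd3*. Its share of the summed RPKM of the 3 genes was 95.2%, 97% and 97.6% in blastocysts, above the luminal 70.2% to 80.3%. *Ccnd2* made up 0.243% to 0.707% in blastocysts and *Ccnd1* 2.18% to 4.05%. Within the kinases of G1, *Cdk4* made up 98.6% to 99.7% of *Cdk4* and *Cdk6* in all 6 libraries, and *Ccne1* made up 82.1% to 93.5% of the E-type cyclins. The share of *Ccne1* is uncertain, because 53.9% of the exon length of *Ccne2* is shared with *Ints8*.

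**Figure D5:**
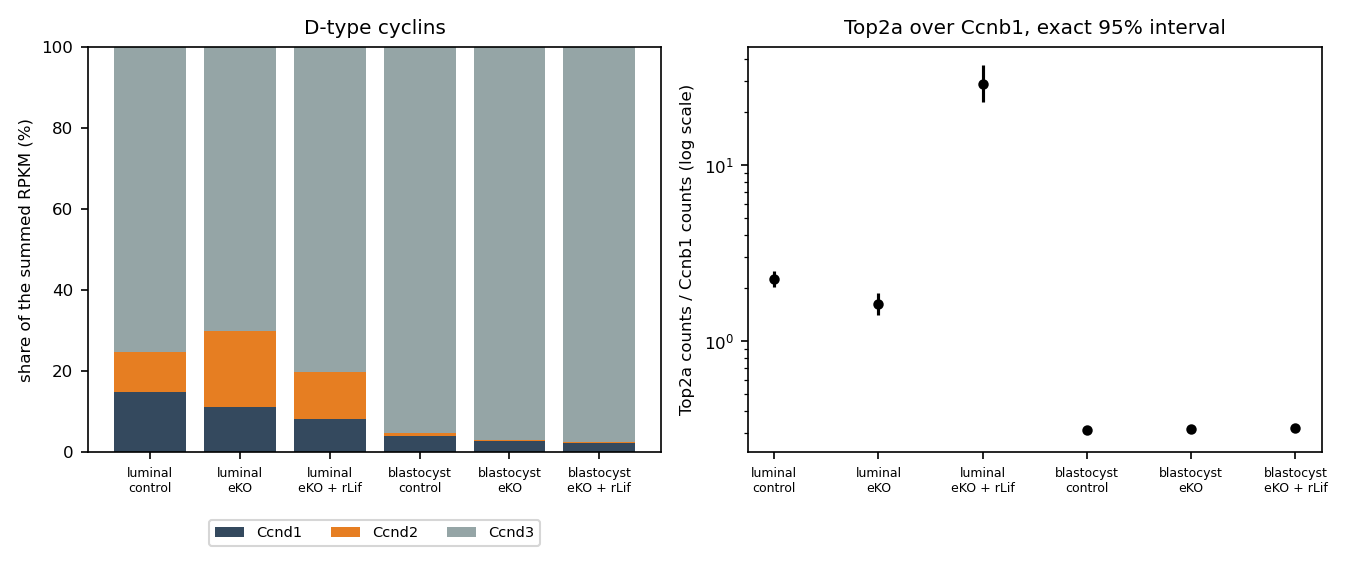
Left, share of the summed RPKM of the D-type cyclins in each library, as stacked bars from 0 to 100%. Right, counts of *Top2a* per count of *Ccnb1* in each library (log axis) with the exact 95% interval. *Ccnd3* fills over 70% of each bar, and the luminal library labelled eKO with rLif lies at 28.6 while the other 5 lie at 0.311 to 2.26.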

How the data were processed

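RNA-seq was read from 6 libraries, 1 per group. The authors made SMART-seq v4 libraries, aligned reads with HISAT2 to GRCm38/mm10 and counted them per gene with featureCounts (Subread 2.0.0 in the submitters' processing notes). The deposited values were whole-number counts per gene without normalization, although the study's methods call them RPKM. The annotation release and strand setting are not given in the sources used here, so reads of overlapping or antisense genes cannot be told apart, and 5 of the 39 genes have exon overlaps.

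Genes with at least 10 counts over 3 libraries were kept. TMM scaling used edgeR 4.0.16 under R 4.3.3. RPKM used the deposited exon lengths. Ratios have exact Clopper-Pearson 95% intervals and levels exact Poisson ones. Reads without molecular identifiers are not independent molecules, so both cover counting error only. Full values were planned for genes called in any comparison, the D-type and G-type cyclins, *Mki67*, *Pcna* and the inhibitors, and for up to 3 called genes per further list with the interval bound farthest from 0. The markers *Tek*, *Lyz2*, *Elf5* and *Col3a1* were named after their values were seen. The genes and lists were chosen with earlier results of these data known. Alternatives were total-count and DESeq2 1.42.0 scaling, other minimum counts and limits, and edgeR's exact test at an assumed dispersion.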

Additional observations from a re-analysis of the deposited data

Results flagged for a closer look

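In 5 genes the 2 tissues moved in opposite directions in the same comparison, in that 1 tissue was called and the interval of the other lay wholly on the opposite side of 0. The share of all genes that meet this rule was not counted. The blastocyst ratios of *Ccnb1*, *Ccnb2*, *Foxm1* and *Mki67* were small, at 0.11 to 0.31. They come from the rLif-treated library, where all 13 G2 and mitosis genes lay above both other groups. With 1 library per group the difference between the tissues was not tested, and the luminal directions rest on labels that the *Lif* counts do not bear out. For eKO against control, *Ccnd2* had a log2 ratio of 1.01 in the luminal layer and -1.44 in blastocysts. For rLif-treated eKO against control, *Ccnb1* had -2.80 in the luminal layer and 0.25 in blastocysts, *Ccnb2* -2.49 and 0.11, *Foxm1* -2.22 and 0.23, and *Mki67* -1.37 and 0.23. For rLif-treated eKO against eKO, *Ccnb1* had -2.03 and 0.31, and *Ccnb2* -1.88 and 0.19. These last comparisons share the rLif-treated library with those before them.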

How the results depend on the processing

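No paired analysis was possible because each group was 1 library, and for the same reason no replicate could be left out. Counts of genes called followed the limit. At a log2 limit of 0, the luminal calls (higher and lower) were 5 and 27 for eKO against control, 9 and 21 for rLif-treated eKO against control, and 16 and 11 for rLif-treated eKO against eKO, and the blastocyst calls were 9 and 11, 23 and 4, and 25 and 4. At a log2 limit of 2, calls were 0 and 0 (luminal, eKO against control), 2 lower (rLif-treated eKO against control), 0 and 0 (rLif-treated eKO against eKO), and 0 lower in blastocysts for eKO against control and for rLif-treated eKO against eKO. The edgeR exact test at a dispersion of 0.1 called 0 higher and 0 lower in luminal eKO against control, 2 lower with rLif against control, 0 lower with rLif against eKO, and 0 lower in the blastocyst comparisons that had 1. It left the number called higher in luminal rLif-treated eKO against eKO as it was.

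Scaling by total counts moved the median of all luminal genes from 0.013 to -0.164 (rLif-treated eKO against control) and from -0.007 to -0.115 (rLif-treated eKO against eKO). The median of the cell cycle genes went from -0.309 to -0.486 in the former. In the latter it went from 0.01 to -0.098 and so changed sign, genes above 0 went from 20 to 17 of 38, those of G2 and mitosis from 6 to 4 of 13, licensing genes from 7 to 6 of 8, and genes called lower from 3 to 4. It also called 1 gene lower in blastocysts for rLif-treated eKO against control. DESeq2 size factors and minimum counts of 1 or 50 left each number called as it was and turned no median. With any gap between tissues, 4 genes were lower in blastocysts. Without gene length the share of *Ccnd3* was 60%, 51.4% and 65.1% in the luminal layer and 91.7%, 94.8% and 95.8% in blastocysts. Depth limits *Cdkn2a*, *Cdk6* and *Ccne2*, which had at most 129 counts in any library. In the luminal libraries it also limits other genes, among them *Bub1* (107, 73 and 25 counts) and *Foxm1* (149, 43 and 33 counts), which were called.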
